A study of Mus musculus with 28 samples.

Results

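Mouse embryonic fibroblasts (MEFs) that had been cultured with the p38 inhibitor SB203580 (p38i) were compared with untreated MEFs, both taken before reprogramming was induced. The comparison holds the 2 libraries labelled MEF.p38i and the 2 labelled MEF.ctr, 4 of the 28 RNA-seq libraries of the series, and these members were chosen by their labels alone. Both groups are wild-type MEFs from mouse embryos. Per the study's methods they carry an Oct4-GFP reporter (OG2) and came from mid-gestation embryos of either sex of OG2 males crossed to 129 females. No retroviral reprogramming factor is named for them, and the control MEFs are labelled as having no treatment, so no vehicle is stated. The labels do not say whether replicates 1 and 2 were separate cultures. The p-values below measure only the spread between libraries of the same group, pooled over the 28 libraries unless the text says otherwise. The other libraries follow induction with Oct4, Klf4 and Sox2 under DMSO, under p38i throughout (p38i), or after p38i given to the MEFs only (pre_p38i), and of these the day 1 libraries are used below. The comparison addresses what the inhibitor had already altered in the starting cells.

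p38 is a stress-activated MAP kinase. It is switched on by the kinases MKK3 and MKK6 and acts through downstream kinases such as MK2 and through transcription factors, among them members of the AP-1 family (dimers of Jun and Fos proteins). In fibroblasts it is known for driving inflammatory and prostaglandin genes, for stabilising short-lived mRNAs and for restraining the cell cycle under stress. SB203580 binds the ATP pocket of the p38α and p38β isoforms, so it blocks their activity and not their synthesis, and the mRNA of the target is no check of the treatment.

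The inhibitor was accompanied by changes in many genes, most of them small. Where the 4 values averaged 5 or more, the largest increases among called genes were in the glypican Gpc3 and the CCN protein Ccn3, and the largest decreases included those of proliferins and of the platelet-type chemokines Ppbp and Pf4. Of 13230 genes tested, 2365 (17.9%) were called at an adjusted p under 0.05, 1287 of them higher with p38i (9.73%) and 1078 lower (8.15%) (limma, Benjamini-Hochberg adjustment, 2 libraries a group). A difference of at least 1 on the log2 scale was reached by 134 genes called higher and 224 called lower, and a difference of at least 2 by 4 and 29. With an average of 5 or more over the MEF libraries, the numbers were 53 and 105, and 2 and 15. The rest were low genes, where rounding to whole numbers weighs on the fold change. The values are whole numbers on the TPM scale (transcript abundance per unit of length and library), and fold changes are on log2(value + 1), which understates the change of low genes. As a simple count, 25.4% of tested genes had both p38i libraries above both untreated ones and 20.5% had both below. In bulk RNA, fewer cells of a type and less RNA per cell cannot be told apart.

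The counts depend on the libraries in the fit. When only the 4 MEF libraries were fitted (the 4-library fit), 904 genes were called, 463 higher and 441 lower, of which 646 were also called the same way with all 28 libraries. Without p38i replicate 1 the count was 1515 (774 higher) and without p38i replicate 2 it was 1571 (854 higher, 717 lower). Scaling by median ratios turned the split to 1071 higher and 1374 lower. A mean under 5 over the MEF libraries was found for 372 of the called genes. At such levels whole-number rounding weighs on the fold change and can give false calls. Among the 9747 genes at or above 5 the share called was 20.4%.

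**Figure D1:**
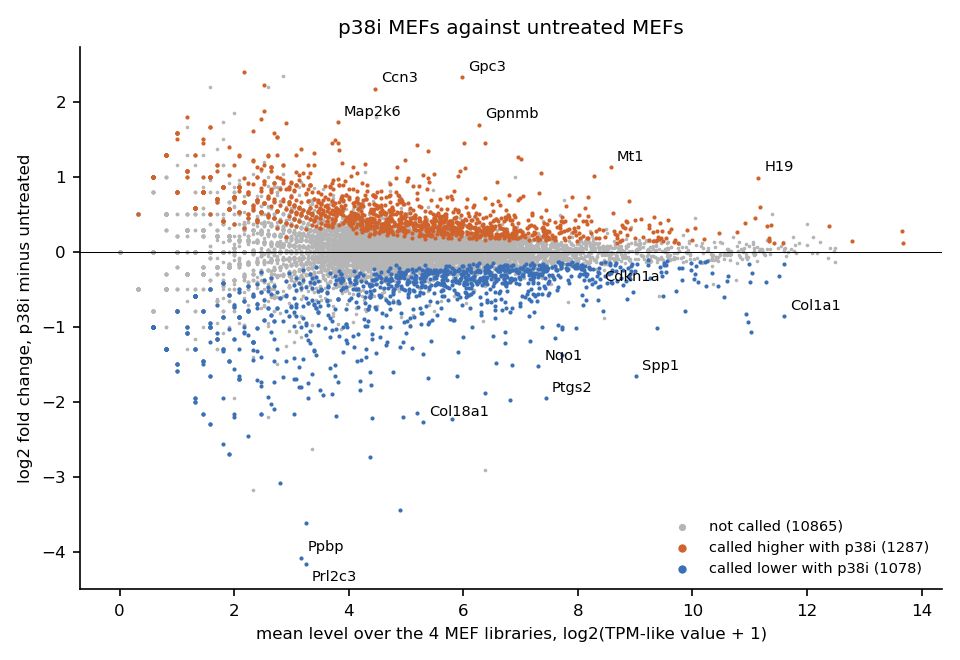
Each point is a gene: its mean level over the 4 MEF libraries as log2(TPM-like value + 1) on the horizontal axis and its log2 fold change, p38i minus untreated, on the vertical axis, coloured by call. The 1287 genes called higher and 1078 called lower lie mostly close to 0, and the named genes far from it include Gpc3 and Ccn3 above and Prl2c3, Ppbp and Col18a1 below.

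The 4 libraries were alike in their general features. Values summed to between 992398 and 992537 per library, 12454 to 12559 genes had a value of at least 1, and mitochondrially encoded genes took 1.95% to 2.42% of the total. The root mean square log2 difference between libraries over genes with a mean of at least 5 was 0.243 between the untreated replicates, 0.226 between the p38i replicates, and 0.375 to 0.388 across the groups. Xist, the X-inactivation RNA, stood at 8 to 10 and the Y-linked Eif2s3y at 16 to 21, and none of the 5 sex-linked genes was called.

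Gpc3 encodes a cell-surface heparan sulphate proteoglycan that limits growth signals in the embryo (chromosome X, 52272426 to 52613950 in mm10, ENSMUSG00000055653). It had values of 21 and 19 in the untreated libraries and 111 and 98 in the p38i libraries. The p38i values were 5.22-fold higher (log2 fold change 2.33, SE 0.22, adjusted p = 3.22e-07). Ccn3, a matricellular protein of the CCN family (chromosome 15, 54745702 to 54754039, ENSMUSG00000037362), had 6 and 8 untreated and 38 and 32 with p38i. Both groups were far apart in each gene. The next largest increases at this level were in Map2k6 (the p38 activator MKK6), Dlk2, Gpnmb (a lysosomal and melanosomal membrane glycoprotein), Sema3b, Bex2, Cd34, Bmp4, Dkk3, Cdo1 and Mest. Gpnmb rose from 35 and 36 to 120 and 115, and Dkk3, a secreted Dickkopf-family protein, from 42 and 45 to 123 and 119. Cdo1 (cysteine dioxygenase) had 7 and 6 against 20 and 19. Dlk2, Sema3b, Bex2 and Cd34 were low, at 12 or below in all 4 libraries, and their calls, with that of Bmp4, were lost in the 4-library fit. Bex2 shares 99.5% of a stretch of transcript with the more abundant Bex3, so its reads are uncertain.

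The proliferins are prolactin-related hormones that growing fibroblasts secrete. Prl2c3 (chromosome 13, 12790822 to 12800078, ENSMUSG00000056457) had 18 and 16 untreated and was listed at 0 in both p38i libraries, and Prl2c2 had 15 and 8 against 0 and 1. Both tested proliferins were thus called lower, though their transcripts are 99.5% identical over 842 bases and the split between them is uncertain. Ppbp had 18 and 14 untreated and was listed at 0 with p38i, and its neighbour on chromosome 5, Pf4, had 14 and 19 against 1 and 0. The other large decreases were in Col18a1, Col5a3, Has2 (hyaluronan synthase), Pla2g7, Il11, Myh11 and the histone gene Hist2h2aa1. The histone had 28 and 31 against 20 and 0, has near-identical copies, and is uncertain. Pla2g7, a lipoprotein-associated phospholipase, had 31 and 37 against 6 and 7. Calls for Prl2c2, Pf4, Il11 and Hist2h2aa1 were lost in the 4-library fit.

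**Figure D2:**
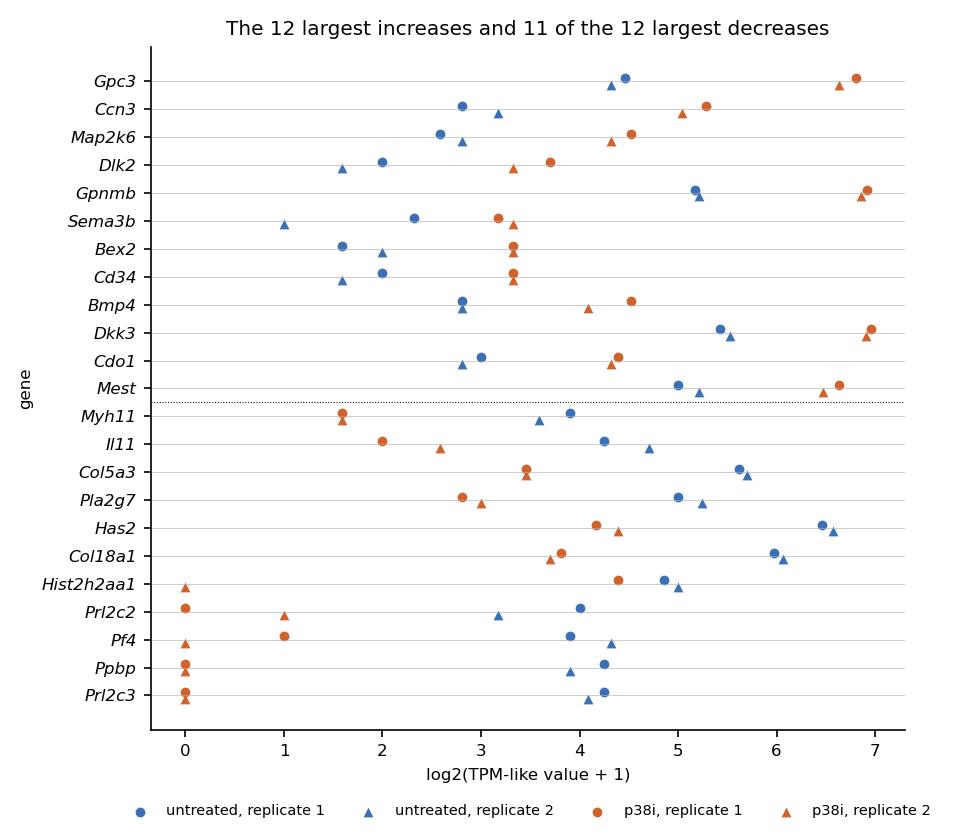
Values of the 12 genes with the largest increases (upper part) and 11 of the 12 with the largest decreases (lower part) that were called and had an average of 5 or more over the 4 libraries, as log2(TPM-like value + 1); blue marks the untreated and orange the p38i libraries, circles replicate 1 and triangles replicate 2. In every gene shown the groups are apart, which the choice of genes fixes, and for Hist2h2aa1 the p38i replicates stand at 20 and 0.

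Of 23 genes of the p38 cascade tested, 2 were called higher and 3 lower, a share close to the 17.9% of all tested genes, with a median log2 fold change of 0.02 against 0.0 over all. Mapk14, which encodes p38α, had 60 and 57 untreated and 62 and 65 with p38i (adjusted p = 0.319). The levels of Mapk11 (p38β) were 7 and 7 against 7 and 6, and those of Mapk12 (p38γ) were 7 and 4 against 5 and 7. Neither was called. Mapk13, which encodes p38δ, an isoform that SB203580 does not block, fell from 13 and 14 to 5 and 8. Upstream, Map2k6 rose 3.73-fold, from 5 and 6 to 22 and 19 (adjusted p = 1.65e-08), while its partner Map2k3 (MKK3) had 98 and 96 against 105 and 108 and was not called. Downstream, Mknk2, a kinase of the translation factor eIF4E, rose from 50 and 53 to 69 and 65. Hspb1, the small heat shock protein phosphorylated by MK2, had 466 and 422 against 374 and 366. Mef2d, a p38-regulated transcription factor, fell from 49 and 49 to 35 and 37. In the 4-library fit Mapk13, Hspb1 and Mknk2 were not called. Mapkapk2 (MK2) had 158 and 148 against 141 and 141 and was not called.

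Of 13 AP-1 family genes tested, 2 were called higher and 3 lower, where 9.73% and 8.15% of all tested genes were. Jund rose 1.53-fold, from 177 and 171 to 263 and 268 (adjusted p = 1.01e-05), and Jun had 96 and 100 against 115 and 120. Junb fell from 175 and 189 to 120 and 122, Mafk, a small partner protein, from 27 and 27 to 18 and 17, and Fosl1 (FRA1) from 89 and 84 to 68 and 67. Fos had 7 and 7 against 10 and 12 (adjusted p = 0.058). Neither Jun nor Fosl1 was called in the 4-library fit. Of 16 feedback regulators of MAP kinases tested, 4 were called higher and 1 lower. Dusp10, a phosphatase that removes phosphate from p38 and JNK, had 11 and 14 against 21 and 21, and Spry2, an inhibitor of receptor tyrosine kinase signalling, had 48 and 45 against 61 and 63. None of these 16 was called in the 4-library fit.

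Among the 18 serum-response immediate early genes, 7 were called lower and 1 higher, where 8.15% and 9.73% of all tested genes were. The exception was Egr1, a zinc finger factor induced within minutes of growth factor stimulation, which had 76 and 68 untreated and 169 and 178 with p38i (log2 fold change 1.26, SE 0.28, adjusted p = 0.00301). Plaur, the urokinase receptor, went the other way, from 286 and 276 to 138 and 141. Nr4a1, an orphan nuclear receptor, had 46 and 40 against 25 and 25, and Btg2, Phlda1, Ier5, Ier3 and Btg1 were also lower. The 4-library fit called 1 of these genes in each direction.

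The promoters of called genes were read for short motifs. The letters TGANTCA, with any base at N, are called the AP-1 letters here. They are a looser form of the AP-1 site, which reads TGACTCA or TGAGTCA. Sequences and start sites are from RefSeq (build GRCm38.p6), the 250 bases before the first listed start of each gene were searched on both strands, and 10004 of the tested genes had one. The AP-1 letters were found in 4.3% of these promoters. They were found in 6.65% of promoters of genes called lower and in 3.05% of those of genes called higher. Among genes lower by at least 1 on the log2 scale, 22 of 147 promoters (15.0%) held them, and among genes higher by that much 3 of 98 (3.06%). These sets include many low genes: 105 of the 224 genes lower and 53 of the 134 higher averaged 5 or more over the MEF libraries. The letters TATAAA, the core of the TATA box, were also found in 15.0% of the promoters of the strongly lower genes, against 6.52% of all tested, so the sets differ in promoter type as well. The cAMP-response letters TGACGTCA, which do not overlap the AP-1 letters, were found in 2.8% of all and 1.36% of strongly lower promoters. A match is only a description of the letters, and matches to the narrower site were not counted apart. The stretches below show the AP-1 letters, in capitals with 10 bases on either side, in 4 of the genes that fell most or belong to the immediate early list. Among the named genes called higher, Map2k6 and Mt2 held the same letters at their first listed start, and Mmp12 and Dhcr7 at a later one. The 4 stretches shown are from genes called lower; they lie at chr7:4778223-4778249 (minus strand, at the second listed start of Il11, since the first holds none), chr7:24462404-24462430 (plus), chr5:90768304-90768330 (plus) and chr13:12800272-12800298 (minus).
Il11: ggagggagggTGAGTCAggatgtgtca
Plaur: cccctggagcTGACTCActctttagca
Ppbp: tgcatctgtaTGAATCAgagccagaga
Prl2c3: gaacatgagaTGAATCAcatacataga
The letters end 92 bases before the start in Il11, 63 in Plaur, 198 in Ppbp and 203 in Prl2c3. In Ppbp and Prl2c3 they read TGAATCA, which only the looser form admits.

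Many cell cycle genes rose, by small amounts. For all tested genes the shares called were 9.73% higher and 8.15% lower. Of 37 genes for DNA replication and nucleotide supply, 15 were called higher and 0 lower (median log2 fold change 0.28, against 0.0 over all tested genes), and of 38 genes of the mitotic spindle, kinetochore and condensin, 20 were called higher and 0 lower (median 0.28). Pcna, the sliding clamp of the replication fork, had 148 and 158 untreated and 193 and 203 with p38i. E2f1, a driver of S-phase genes, had 25 and 25 against 35 and 37, and the cyclin gene Ccna2 had 96 and 102 against 131 and 126. Every p38i value was above every untreated one in these 3 genes, as it was in 25.4% of all tested genes. Of the 3, only E2f1 was called in the 4-library fit. In mitosis, Mki67, the proliferation antigen, had 34 and 34 against 45 and 43. Top2a, which untangles chromosomes, had 135 and 130 against 169 and 167, and the condensin subunit Ncapd2 had 84 and 81 against 108 and 112. The folds were between 1.14 and 1.57 for the replication genes called. In the 4-library fit, 5 replication and 7 mitotic genes were called, all higher. Leaving out each MEF library in turn left 9 to 12 replication genes called higher and 13 mitotic genes without untreated replicate 2, but 7 without untreated replicate 1, 6 without p38i replicate 1 and 7 without p38i replicate 2.

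Of 16 genes for G1 cyclins, their kinases and inhibitors, 6 were called higher and 2 lower, where 9.73% and 8.15% of all tested genes were. The inhibitor gene Cdkn1a, which encodes p21, fell from 384 and 370 to 275 and 267 (log2 fold change -0.47, SE 0.04, adjusted p = 2.49e-07), and Cdkn2a, which encodes p16 and ARF, from 90 and 97 to 70 and 76. Cyclin D1 (Ccnd1) had 190 and 175 against 233 and 222. The higher genes also included 2 inhibitors of CDK4 and CDK6: Cdkn2c had 14 and 17 against 28 and 27, and Cdkn2d had 19 and 20 against 34 and 29. With the 4 libraries alone 1 gene was called in each direction, Cdkn1a being the lower one. Of 36 genes for cytokinesis and the midbody, the bridge cut at the end of division, 6 were called higher and 4 lower, beside the same 9.73% and 8.15%. These counts were 3 and 2 in the 4-library fit, 3 and 5 with median ratio scaling, 0 and 1 without p38i replicate 1, 1 and 3 without p38i replicate 2, 1 and 3 without untreated replicate 1, and 2 and 3 without untreated replicate 2. Aurkb, the kinase of the chromosomal passenger complex, had 43 and 48 against 60 and 59, Prc1, which bundles spindle microtubules, had 117 and 117 against 142 and 140, and Racgap1, of the centralspindlin complex, 94 and 95 against 111 and 110. The call of Aurkb was lost in the 4-library fit and without either p38i replicate or untreated replicate 1. Arhgef2, an activator of RhoA, fell from 86 and 82 to 64 and 63.

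Some direct p53 targets fell. The shares called over all tested genes were 8.15% lower and 9.73% higher. Trp53 itself had 219 and 221 untreated and 212 and 194 with p38i and was not called (adjusted p = 0.253). Of 28 genes, Trp53 included, 10 were called lower, 2 higher and 16 neither (median log2 fold change -0.16), and 6 were lower without untreated replicate 2 and 5 without p38i replicate 2. Pmaip1, which encodes the apoptosis protein NOXA, fell most, from 26 and 28 to 7 and 8 (adjusted p = 7.13e-10). Plk2, a polo-like kinase, fell from 257 and 272 to 131 and 137, and Mdm2, the ubiquitin ligase of p53, from 121 and 132 to 98 and 98. Sesn1 moved up, from 6 and 6 to 9 and 9. The call of Mdm2 was lost in the 4-library fit, where 3 members were called lower and 1 higher.

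Many genes for secreted inflammatory and growth factors fell. Of 19 cytokine, growth factor and prostaglandin genes tested, 11 were called lower and 1 higher (median log2 fold change -0.76). Over all tested genes, 8.15% were called lower and 9.73% higher. Ptgs2, which encodes the inducible prostaglandin synthase COX-2 (chromosome 1, 150100031 to 150108227, ENSMUSG00000032487), had 269 and 279 untreated and 67 and 74 with p38i (log2 fold change -1.94, SE 0.10, adjusted p = 3.3e-11). The treated libraries lay far below the untreated ones. Ptgs1 (COX-1) had 43 and 39 against 16 and 17, and Vegfa, the angiogenic factor, 57 and 62 against 25 and 26. Il11, a cytokine of the IL-6 family, had 18 and 25 against 3 and 5. Il6 had 3 and 2 and was listed at 0 in both p38i libraries, too low to be tested. Csf1, the macrophage growth factor, was the gene that rose, from 255 and 241 to 319 and 325. The 4-library fit called 7 of the 19, all lower, and 5 were lower without p38i replicate 1 and 7 without p38i replicate 2.

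Of 15 chemokine genes tested, 6 were called lower and 0 higher, where 8.15% and 9.73% of all tested genes were. Only 5 of the 15 averaged 5 or more over the MEF libraries. Cxcl14 had 60 and 58 against 12 and 13, the monocyte attractants Ccl7 and Ccl2 had 65 and 61 against 20 and 18, and 83 and 90 against 36 and 42. These 3 genes kept their call in every alternative tried.

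Most collagen genes fell. Of 23 collagen chains tested, 16 were called lower and 2 higher (median log2 fold change -0.63), where 8.15% and 9.73% of all tested genes were. In the 4-library fit 12 were lower and 2 higher. Col1a1, a chain of type I collagen, had 4164 and 3867 untreated and 2200 and 2221 with p38i (adjusted p = 4.22e-07). Col3a1, of type III collagen, had 247 and 284 against 124 and 115. The largest fall was in Col18a1, a basement membrane collagen, from 62 and 66 to 13 and 12 (log2 fold change -2.27, SE 0.08, adjusted p = 1.95e-13), and Col5a3 fell from 48 and 51 to 10 and 10. The main exception was Col2a1, the collagen of cartilage, which rose from 211 and 198 to 413 and 413.

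Of 29 matricellular and other fibroblast matrix genes tested, 15 were called lower and 5 higher. Has2 had 87 and 94 against 17 and 20. Spp1 (osteopontin) had 736 and 836 against 247 and 249, and Thbs1 (thrombospondin 1) 2839 and 2796 against 1329 and 1358. Fn1 (fibronectin) fell less, from 3232 and 3212 to 2549 and 2616. Ogn (osteoglycin) rose from 37 and 40 to 86 and 79, and Efemp1 from 109 and 124 to 207 and 196. Among 19 matrix metalloproteinases and their inhibitors, 8 were called lower and 6 higher, where 8.15% and 9.73% of all tested genes were. The stromelysins and collagenases Mmp3, Mmp9, Mmp10 and Mmp13 stood at 6 or below untreated and were listed at 0 with p38i, whereas the macrophage elastase gene Mmp12 had 5 and 5 against 14 and 11. Timp3 fell from 214 and 212 to 146 and 140, and Timp2 rose from 541 and 514 to 686 and 672. In the 4-library fit, 4 of these 19 were called lower and 1 higher, and Mmp12 and Timp2 were not among them.

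Some contractile genes fell. Of 18 muscle actin and contractile genes tested, 5 were called lower and 0 higher, where 8.15% and 9.73% of all tested genes were. Acta1, skeletal muscle actin, had 176 and 180 against 43 and 46, Myh11, smooth muscle myosin, 14 and 11 against 2 and 2, and Actg2, enteric smooth muscle actin, 410 and 383 against 255 and 253. The myofibroblast genes Acta2 and Tagln were not called: Acta2 had 6180 and 5867 against 5355 and 5572 (adjusted p = 0.43), and Tagln 3238 and 3195 against 3640 and 3762 (adjusted p = 0.329). Over 13 alternatives the log2 fold change of Acta2 ranged from -0.38 to -0.10, and 1 of them called it lower. With a pseudocount of 0.1 the call of Acta1 was lost. Of 13 CCN and YAP target genes, 3 were called lower and 1 higher, and besides Ccn3 these included Ccn4, with 145 and 150 against 62 and 64, and Ccn2 (CTGF), with 1741 and 1746 against 1339 and 1459.

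Ligands and modulators of developmental pathways moved in both directions. Of 26 genes of TGF-beta and BMP signalling tested, 7 were called lower and 5 higher, where 8.15% and 9.73% of all tested genes were. Inhba, the activin A subunit, had 306 and 299 against 114 and 118, Grem1, a BMP antagonist, 219 and 222 against 111 and 108, and the ligand Tgfb1 85 and 88 against 48 and 54. Bmp4 had 6 and 6 against 22 and 16, and the BMP target Id2 had 72 and 82 against 123 and 116. The 4-library fit called 4 of the 26 lower and 3 higher, and Tgfb1, Bmp4 and Id2 were not among them. Of 18 Wnt targets and regulators, 7 were called higher and 3 lower (median log2 fold change 0.41). Only 6 of the 18 averaged 5 or more over the MEF libraries, so rounding to whole numbers weighs on most of them. The 4-library fit called 5 higher and 1 lower. The secreted antagonists Dkk3 and Sfrp1 were among the higher, Sfrp1 with 8 and 8 against 17 and 16, and the ligand Wnt5a fell from 93 and 96 to 47 and 46. Of the 9 glypicans and syndecans, Gpc3, Sdc2 and Sdc4 were called higher and Gpc4 lower, the last from 186 and 179 to 126 and 118. The call of Sdc2 was lost in the 4-library fit.

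Imprinted genes, which are expressed from a single parental allele and of which several regulate fetal growth, rose more often than they fell. Of 19 tested, 7 were called higher and 1 lower, where 9.73% and 8.15% of all tested genes were. The 4-library fit called 7 higher and 0 lower, but not all the same genes, as Slc38a4 was among them and Peg3 was not. H19, a non-coding RNA, had 1540 and 1497 untreated and 3077 and 2960 with p38i (log2 fold change 0.99, SE 0.07, adjusted p = 5.49e-09). Its neighbour Igf2, the fetal insulin-like growth factor, had 1888 and 1790 against 2803 and 2750. Dlk1, a Notch-related inhibitor of fat cell differentiation, had 74 and 78 against 182 and 179, and Mest 31 and 36 against 98 and 88. Peg3, Peg10 and Grb10 also rose, and Sgce had 31 and 33 against 27 and 25. Mest overlaps Copg2, which was lower than it, and Igf2 shares its transcript with an overlapping gene model, so reads of each may be split.

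Stress and metabolic programmes also differed. Of 19 genes of the ATF4 integrated stress response, 14 were called lower and 0 higher (median log2 fold change -0.5), and 7 were lower in the 4-library fit. Nupr1, a small stress-induced nuclear protein, had 119 and 141 against 33 and 36. Ddit4 (REDD1), an inhibitor of mTORC1, had 85 and 92 against 29 and 26, and Asns, asparagine synthetase, 155 and 155 against 97 and 96. The factor itself, Atf4, had 298 and 328 against 245 and 256. Of 15 NRF2 and glutathione genes, 7 were called lower and 2 higher. Nqo1, a quinone reductase, fell from 236 and 234 to 83 and 79 (adjusted p = 2.52e-11), and Gsta4 and Txnrd1 fell by less, Txnrd1 from 492 and 522 to 371 and 374. In the 4-library fit 5 were lower and 0 higher. Of 15 heat shock and unfolded protein response genes, 3 were called lower and 0 higher, where 8.15% and 9.73% of all tested genes were. Median ratio scaling gave 6 lower. Herpud1, of the pathway that clears misfolded proteins from the endoplasmic reticulum, had 79 and 79 against 54 and 50.

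The metallothioneins, small proteins that bind zinc and other metals, rose. Mt1 had 219 and 258 untreated and 520 and 525 with p38i (log2 fold change 1.13, SE 0.06, adjusted p = 1.16e-10), and Mt2 had 101 and 109 against 229 and 209 (1.05, SE 0.05, adjusted p = 3.3e-11). The other 2 genes of the list were not called. The metal-response factor MTF1 binds metal response elements, whose core reads TGCGCNC or TGCACNC. In the 250 bases upstream, Mt1 held 1 such core and Mt2 held 3. At least 1 core was found in 30.5% of all tested promoters, in 33.3% of those of genes called higher and in 29.9% of those of genes called lower. The cores are in capitals in the stretches below, which show what the promoters of these genes hold. All are on the plus strand of chromosome 8, Mt1 at chr8:94179056-94179082 and Mt2 at chr8:94172385-94172411, chr8:94172480-94172506 and chr8:94172558-94172584, the last read on the opposite strand.
Mt1: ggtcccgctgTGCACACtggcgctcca
Mt2, farthest: gcatcgcctcTGCACCCggcccctcgg
Mt2, middle: gcagacccttTGCGCTCagctcctttg
Mt2, nearest: gggggagggcGTGTGCAggctctgtcc

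Of 22 genes of lysosomes and the proton pump that acidifies them, 8 were called higher and 2 lower. Apart from Gpnmb the increases were small: Ctsa had 225 and 213 against 266 and 259, and Ctsd 794 and 771 against 859 and 852. Ctsk, a collagen-degrading protease, fell from 28 and 31 to 14 and 19, and Sqstm1 from 475 and 455 to 343 and 365. Fitted alone, the 4 libraries gave 2 calls, both higher. Of 25 genes of glycolysis and the hypoxia response, 8 were called lower and 0 higher. Slc16a3, a lactate exporter, had 29 and 34 against 8 and 9, Ndrg1 16 and 17 against 7 and 8, and Hk2 (hexokinase 2) 31 and 31 against 15 and 19. Fitted alone, the 4 libraries gave 3 lower and 1 higher, and Hk2 was not among them. Of 22 cholesterol synthesis genes, 4 were called lower and 2 higher, where 8.15% and 9.73% of all tested genes were. None of the 22 was called in the 4-library fit. Dhcr7 had 16 and 17 against 22 and 21. Of the 13 mitochondrially encoded subunits, 7 were called higher and 0 lower. In the 4-library fit 0 were higher and 1 was lower, mt-Nd3, with 476 and 427 against 243 and 247, and without untreated replicate 2 the number higher was 3. mt-Nd2 had 711 and 596 against 858 and 885, with a wide gap between the untreated replicates.

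Further lists are given by count, where 9.73% of all tested genes were called higher and 8.15% lower. Of 29 interferon response genes, 4 were called higher and 1 lower, and none in the 4-library fit. Stat2 had 10 and 11 against 16 and 16. Of 12 genes for antigen presentation by MHC class I, 3 were called lower, among them H2-D1, with 41 and 42 against 32 and 33. Of 7 aryl hydrocarbon receptor targets tested, Nqo1 was called lower and Tiparp higher, the latter a call lost in the 4-library fit and without p38i replicate 1. Cyp1b1, a further target of this receptor, had 219 and 207 against 210 and 211 and was not called. Of 12 mesenchymal transcription factors and cadherins, 3 were called higher and 1 lower. Twist1 had 74 and 74 against 91 and 96, and its call was lost in the 4-library fit. Cdh11 (cadherin 11), which fell from 177 and 186 to 100 and 99, shares sequence with several predicted gene models, so its reads are uncertain. Of 25 Hox genes tested, Hoxa5, Hoxa7 and Hoxc5 were called higher, where 9.73% of all tested genes were. Hoxa7 had 26 and 25 against 36 and 36 and kept its call in every alternative tried. The call of Hoxc5 was lost in the 4-library fit, and that of Hoxa5 in 9 of 13 alternatives, among them the 4-library fit and each fit that left out a MEF library.

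**Figure D3:**
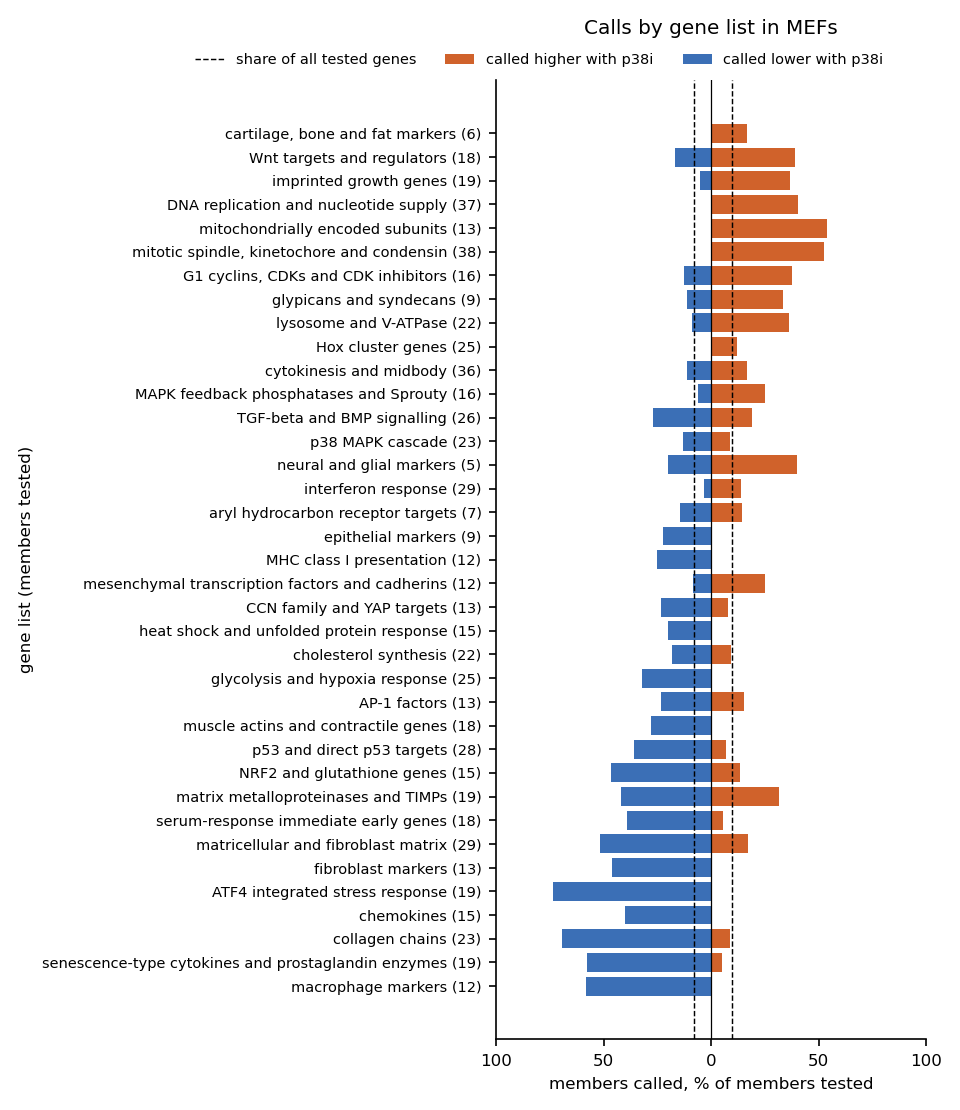
For each gene list with at least 5 tested members and any call, the orange bar gives the percent of tested members called higher with p38i and the blue bar the percent called lower, with the number tested in parentheses and dashed lines at the shares over all tested genes (9.73% and 8.15%). Lists are ordered by their median log2 fold change, from the macrophage markers at the bottom through the cytokine, collagen and ATF4 lists to the cell cycle and Wnt lists near the top. Of the 18 Wnt genes, only 6 averaged 5 or more over the MEF libraries.

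Fibroblast markers, which define the labelled cell type, were high in all 4 libraries, and some of them fell. Summed over the 13 fibroblast markers, the level was 15272 and 14585 in the untreated libraries and 11237 and 11338 with p38i, and 6 of the 13 were called lower and 0 higher. Pdgfrb, a receptor of fibroblasts and pericytes, had 121 and 121 against 64 and 66. The 12 pluripotency genes summed to 1 at most in any library. Markers of macrophages were present at low levels: summed over 16 genes they were 341 and 321 untreated and 218 and 220 with p38i. Lyz2 was the largest part of each sum, with 154 and 152 against 134 and 132. Of 12 tested, 7 were called lower and 0 higher, where 8.15% and 9.73% of all tested genes were. The complement gene C1qa had 29 and 26 against 6 and 8, and C1qb 28 and 32 against 12 and 7. Csf1r, the receptor for the growth factor encoded by Csf1, had 15 and 13 against 5 and 5, and Cx3cr1 had 6 and 5 and was listed at 0 with p38i. Not all markers went this way, as Cd68 had 20 and 17 against 23 and 21 and Tyrobp 14 and 15 against 10 and 16. The marker Marco was listed at 0 in all 4 libraries. Ppbp, Pf4, Ccl7, Spp1, Gpnmb and Mmp12 are also expressed by macrophages, and the part of macrophages in these results was not tested. In the 4-library fit 4 markers were called, all lower, and the call of C1qb was lost.

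Other cell types were scarcely seen. The 10 blood markers were listed at 0 in all 4 libraries, endothelial markers summed to between 10 and 16, epithelial markers to between 35 and 43 and skeletal muscle markers to at most 2. Of 9 epithelial markers tested, 2 were called lower, where 8.15% of all tested genes were. Krt18 had 5 and 9 against 0 and 1 and Cldn4 3 and 1 against 0 and 0. Neither was called in the 4-library fit. No endothelial, skeletal muscle, blood or pluripotency marker was called. The neural and glial markers summed to 197 and 202 against 219 and 226, and of 5 tested Nes (nestin), with 71 and 68 against 106 and 112, and Map2 were called higher and Stmn2 lower, the last not in the 4-library fit. The cartilage, bone and fat markers summed to 261 and 249 against 469 and 463, nearly all of it Col2a1, the 1 member called.

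The day 1 libraries let the difference in MEFs be set beside those seen once the reprogramming factors had been introduced. The controls differ, as the MEFs are labelled untreated and the day 1 controls had DMSO. The pre_p38i cells had met the inhibitor as MEFs only, and the p38i cells from induction on, and each was compared with the DMSO libraries of day 1 (2 libraries a group). These day 1 comparisons share their DMSO libraries with each other and none with the MEF comparison, and the labels do not say that the pre_p38i cells came from the MEF cultures sequenced. With pre_p38i, 1539 genes (11.6%) were called at day 1. Of the 1287 genes called higher in treated MEFs, 232 (18.0%) were also higher at day 1, where 5.4% of all genes were called higher, and these are 32.5% of the genes higher at day 1. Of the 1078 called lower, 312 (28.9%) were also lower, against 6.24% of all genes, and these are 37.8% of those lower at day 1. Opposite calls were given to 76 of the MEF genes. With p38i from induction on, 2128 genes (16.1%) were called at day 1. Of the genes lower in treated MEFs, 344 (31.9%) were again lower, against 12.6% of all. Of those higher, 154 (12.0%) were again higher and 198 (15.4%) were lower, against 3.47% and 12.6% of all. When each comparison was fitted on its own 4 libraries, the genes called the same way in MEFs and at day 1 were 63 with pre_p38i and 87 with p38i.

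Some of the genes named above were altered at day 1 in pre_p38i and others in p38i cells; the 16 genes described here were chosen with their values known. H19 had 184 and 175 in the DMSO libraries, 384 and 386 in pre_p38i and 143 and 135 in p38i, so that it was higher than DMSO in the first (log2 fold change 1.10, SE 0.07, adjusted p = 5.1e-09) and lower in the second. Gpc3 had 10 and 7 with DMSO, 61 and 65 in pre_p38i and 7 and 9 in p38i. Igf2 had 714 and 703, then 1097 and 1119, then 711 and 741. Dlk1 had 13 and 13, then 34 and 45, then 13 and 16. For each of these 4 genes the pre_p38i libraries stood above both other groups. Grem1, the BMP antagonist, stood below them, with 367 and 358 under DMSO, 176 and 176 in pre_p38i and 362 and 352 in p38i. Col1a1 had 1392 and 1318 with DMSO, 717 and 773 in pre_p38i and 969 and 981 in p38i.

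Egr1 and Ptgs2 differed from DMSO under both treatments. Egr1 had 21 and 17 with DMSO, 44 and 46 in pre_p38i and 51 and 43 in p38i. Ptgs2 had 133 and 125, then 71 and 68, then 70 and 69. The metallothioneins were raised with p38i present: Mt1 had 614 and 652 with DMSO, 579 and 555 in pre_p38i and 1639 and 1653 in p38i, and Mt2 had 387 and 358, then 332 and 357, then 1137 and 1183. In pre_p38i neither was called (adjusted p = 0.107 and 0.185). Gpnmb had 66 and 63 with DMSO, 42 and 39 in pre_p38i and 99 and 108 in p38i, a call in opposite directions. Col18a1 had 66 and 55, then 53 and 58, then 33 and 32, and Ddit4 had 55 and 51, then 53 and 55, then 35 and 35. For both, p38i was lower than DMSO and pre_p38i was not called. Spp1 had 698 and 712, then 620 and 598, then 720 and 737, and was called in neither. Acta2 and Tagln, not called in MEFs, were lower in pre_p38i at day 1. Acta2 had 841 and 901 with DMSO, 405 and 421 in pre_p38i and 922 and 964 in p38i, and Tagln 675 and 755, then 334 and 325, then 872 and 883.

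**Figure D4:**
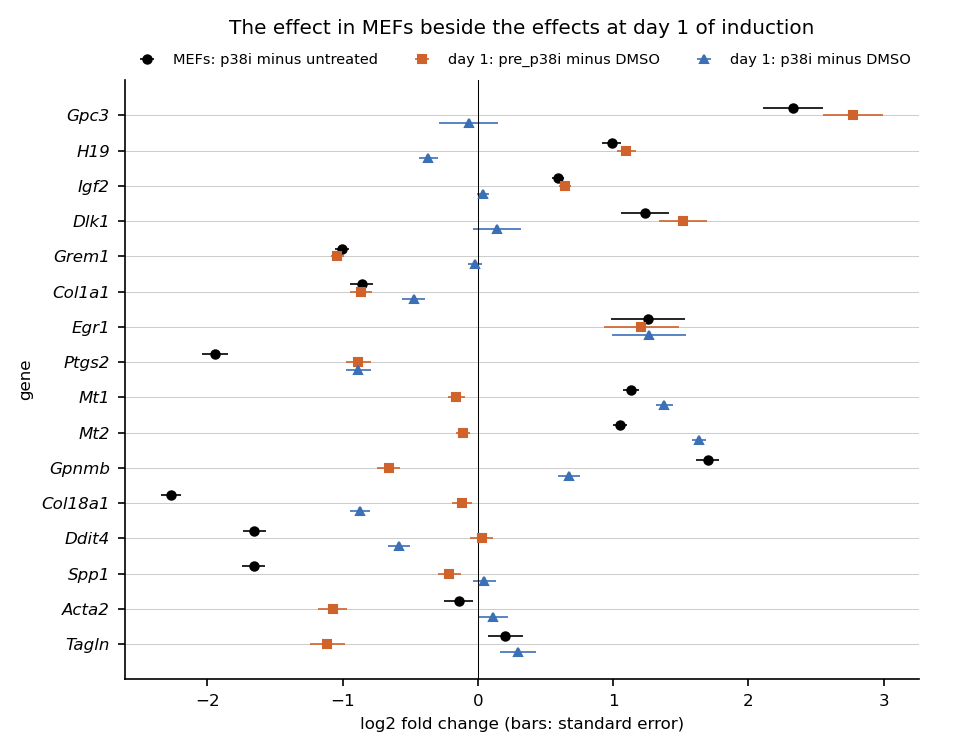
Log2 fold changes with standard errors of 16 named genes in MEFs (black circles, p38i minus untreated) and at day 1 of induction (orange squares, pre_p38i minus DMSO; blue triangles, p38i minus DMSO; 2 libraries a group). For H19, Igf2, Dlk1 and Grem1 the orange squares lie beside the black circles. For Mt1 and Mt2 the blue triangles lie to the right of the circles, at 1.38 and 1.64 against 1.13 and 1.05, and the orange squares near 0.

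The effect of the inhibitor in MEFs and the difference at day 1 were also compared directly, as a difference of differences. With pre_p38i, 1052 genes (7.95%) had an effect at day 1 that differed from that in MEFs, among them 710 of the 2365 genes called in MEFs (30.0%). With p38i the number was 1894 (14.3%), among them 1059 of the genes called in MEFs (44.8%). Gpc3, H19, Igf2, Dlk1, Grem1, Col1a1 and Egr1 were not among the 1052 genes.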

How the data were processed

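Polyadenylated RNA of 28 libraries was sequenced by the study, and the 4 MEF libraries are reported here with 6 of day 1. The submitters' processing notes name bcl2fastq, Bowtie2 2.2.5 and RSEM 1.3.0 and the builds mm10 and hg38. The table deposited by the authors holds whole numbers that sum to nearly the same total in each library, as TPM values do, so it was treated as TPM rounded down (recorded as a score), with no read counts or depth. Precision is therefore known only from the spread of 2 libraries a group, pooled over the 14 groups. The labels name iCD1 medium, TRIzol and a V2 library kit, whereas the methods name serum medium for MEFs and other RNA and library kits, so how these 4 were made is not settled. Gene symbols were looked up by ID in GENCODE M21, which held 99.6% of the 50600 IDs, and otherwise taken from the file, in which 27 names had turned into dates.

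limma 3.58.1 in R 4.3.3 was fitted to log2(value + 1) of genes averaging 1 or more across the 28 libraries, with a mean for each of 14 groups and a trended variance prior. p-values were adjusted over all genes tested. An exact permutation of 2 against 2 libraries cannot give a p below 0.333. The script was tested on simulated data. There rounding to whole numbers gave false calls among genes near 0 in MEFs, so the pass mark covered only genes averaging 5 or more. The 44 gene lists and the genes in them were chosen with earlier results of these data known. Named genes were the 4 p38 isoforms and Trp53; the 12 largest increases and decreases that were called, averaged 5 or more in the MEF libraries and did not overlap between groups; the 3 largest called members with that average in each list; and 11 genes set by name. Other list members and the 16 genes given at day 1 are examples chosen after their values were seen. Near-identical transcripts were searched with BLAST 2.17.0. Promoters are from RefSeq. Alternatives changed the pseudocount, filter, scaling, libraries and replicate block, and a filter on an average of 5 or more in the MEF libraries was added after seeing the data. Protein sequences were not used here, and a few genes that the rule names are not reported here.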

Additional observations from a re-analysis of the deposited data

Results flagged for a closer look

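Each result here is one where the effect at day 1 of induction differed from the effect in MEFs by the test of the difference itself (limma, adjusted over all genes, 2 libraries a group). Such a difference was found for 1052 genes with pre_p38i and for 1894 genes with p38i. Values below are the log2 effect at day 1 minus that in MEFs.

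With pre_p38i, the effect at day 1 was the lower one for Gpnmb (-2.36, SE 0.119, adjusted p = 2.03e-10), Mt1 (-1.29, adjusted p = 9e-09) and Mt2 (-1.17, adjusted p = 4.29e-09), which rose in treated MEFs. The decreases of Col18a1 (2.15, SE 0.108, adjusted p = 2.03e-10), Ddit4 (1.68, adjusted p = 1.84e-08), Spp1 (1.45, adjusted p = 1.84e-07) and Ptgs2 (1.06, adjusted p = 3.69e-05) were smaller at day 1. Acta2 (-0.93, adjusted p = 0.000566) and Tagln (-1.32, adjusted p = 0.000118) were called lower at day 1 and were not called in MEFs.

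With p38i, the difference was -2.40 for Gpc3 (SE 0.313, adjusted p = 2.76e-05), -1.36 for H19 (adjusted p = 2.19e-08), -0.56 for Igf2 (adjusted p = 5.65e-06) and -1.10 for Dlk1 (adjusted p = 0.0055), each higher in treated MEFs. It was 0.98 for Grem1 (adjusted p = 2.17e-08) and 0.39 for Col1a1 (adjusted p = 0.0333), each lower in treated MEFs. Gpnmb differed by -1.03 (adjusted p = 7.5e-06) and Mt2 by 0.58 (adjusted p = 1.58e-05), the latter with the larger increase at day 1. The differences were 1.40 for Col18a1 (adjusted p = 4.67e-08), 1.07 for Ddit4 (adjusted p = 4.69e-06), 1.70 for Spp1 (adjusted p = 1.49e-08) and 1.06 for Ptgs2 (adjusted p = 2.02e-05), all with the smaller decrease at day 1 or none. No explanation was tested for any of these.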

How the results depend on the processing

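Fitting only the libraries of the groups compared moved the counts most, with the spread then estimated from those libraries alone: 904 genes were called in MEFs, 463 higher and 441 lower, 63 and 87 were called the same way at day 1 with pre_p38i and p38i, and 686 differed in effect with pre_p38i. Leaving out each MEF library in turn gave 1515 to 1676 calls, 774 to 922 higher and 717 to 787 lower. Adding the replicate number at each time point as a replicate block gave 2156 calls, and deviations of same-numbered MEF libraries had a correlation of 0.0026, so the numbers were not taken to pair them. The added filter on MEF averages of 5 or more gave 2118 calls. Other settings gave 1883 (quantile normalization) to 2445 (median ratio scaling). The sign turned in 2 genes that were never called, Cyp1b1 (0.015 with quantile normalization, and -0.057 to 0.024 when each MEF library was left out) and Mapk12 (-0.21 to 0.47 when each was left out). The cause of these was not tested. Of 121 named genes that were called, 63 kept the call in every alternative and 51 lost it in the 4-library fit. Acta2 and Fos, not called with all 28 libraries, were each called in 1 alternative. The table carries no read depth, and values under 5 are limited by rounding to whole numbers.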

Other observations

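Several gene lists that moved in treated MEFs had other counts at day 1. The comparisons share their DMSO libraries and are given side by side. Of the 22 lysosomal genes, 13 were called lower and 0 higher with pre_p38i, and 16 higher and 0 lower with p38i, against 8 higher and 2 lower in MEFs. Of the 19 ATF4 genes, 9 were lower and 0 higher with pre_p38i, and 11 higher and 1 lower with p38i, against 14 lower in MEFs. Of the 38 mitotic genes, 3 were higher and 0 lower with pre_p38i, and 17 lower and 0 higher with p38i, against 20 higher in MEFs. Of the 22 cholesterol synthesis genes, 3 were higher with pre_p38i and 14 with p38i, and 0 were lower in either. Of the 18 contractile genes, 11 were lower with pre_p38i and 4 with p38i, against 5 in MEFs. The share of all genes called at day 1 was 5.4% higher and 6.24% lower with pre_p38i, and 3.47% higher and 12.6% lower with p38i. These lists were not compared by a test.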
